A study of Mus musculus with 16 samples.

Results

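The 9 genes described here are the glucocorticoid receptor Nr3c1 and 8 genes of the glucocorticoid response, Fkbp5, Tsc22d3, Zbtb16, Sgk1, Dusp1, Hsd11b1, Mt1 and Mt2. They were chosen by gene symbol out of the 54532 genes measured, and all 9 were found. Bulk RNA-seq was performed on mouse pulmonary ECs, a CD31+ CD45- fraction obtained with antibody-coated magnetic beads. In the first experiment male WT C57/BL6J mice of 8 weeks received an intratracheal dose of saline (n = 4) or of LPS at 10 mg/kg (n = 6). LPS (lipopolysaccharide) comes from the bacterial outer membrane and causes acute lung injury. In the second experiment Fgfr1 loxP/loxP mice (n = 3) and VE-cadherin-CreERT2 Fgfr1 loxP/loxP mice, named Fgfr1 iΔEC/iΔEC (n = 3), both received 2 mg/kg LPS. Both genotypes had been injected with tamoxifen, which activates the Cre recombinase that the VE-cadherin promoter drives in ECs, and the study calls the iΔEC/iΔEC mice adult with no exact age. ECs were taken 24 h after the injection in all groups, and the second experiment held no saline group. Both tables were normalized separately, so tests were made only within each experiment. Reads on genes ranged from 13478726 in saline 1 to 19043015 in LPS 4.

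The glucocorticoid receptor rests in the cytoplasm in a complex with heat shock protein chaperones. Corticosterone, the main glucocorticoid of the mouse, releases it to the nucleus, where it binds DNA as a dimer or acts through other transcription factors. Its target genes include feedback inhibitors of the receptor and of inflammatory kinases, and glucocorticoids rise in the blood in infection and stress. Several of these genes also respond to cytokines, hypoxia, metals or circadian time, so their transcripts do not measure the hormone itself.

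Promoter sequences are shown for 4 members, because Sgk1 and Tsc22d3 hold letters of the glucocorticoid receptor site in some of their windows and Mt1 and Mt2 are neighbours with letters of the metal response element. The windows are from RefSeq on GRCm38.p6, run from 250 bases before to 50 bases after a transcription start, and are written 5′ to 3′ on the strand of the gene. In the set of windows searched, which did not span the whole genome, 7 of the 9 members were present, with 14 windows. Nr3c1 and Zbtb16 had no window in that set, so their promoters were not examined. Capitals mark the half-site AGAACA, or TGTTCT on the other strand, in the Sgk1 window (chr10:21993640-21993939, plus strand) and the Tsc22d3 window (chrX:140600473-140600772, minus strand). They mark the metal response element core TGCACNC or TGCGCNC, read on both strands, in the windows of Mt1 (chr8:94178839-94179138, plus strand) and Mt2 (chr8:94172368-94172667, plus strand).
Sgk1: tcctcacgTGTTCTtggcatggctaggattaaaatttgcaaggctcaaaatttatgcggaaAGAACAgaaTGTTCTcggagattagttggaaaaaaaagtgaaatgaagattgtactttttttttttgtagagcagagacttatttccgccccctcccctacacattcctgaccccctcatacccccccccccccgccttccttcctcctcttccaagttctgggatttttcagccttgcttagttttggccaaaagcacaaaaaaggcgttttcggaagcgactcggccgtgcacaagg
Tsc22d3: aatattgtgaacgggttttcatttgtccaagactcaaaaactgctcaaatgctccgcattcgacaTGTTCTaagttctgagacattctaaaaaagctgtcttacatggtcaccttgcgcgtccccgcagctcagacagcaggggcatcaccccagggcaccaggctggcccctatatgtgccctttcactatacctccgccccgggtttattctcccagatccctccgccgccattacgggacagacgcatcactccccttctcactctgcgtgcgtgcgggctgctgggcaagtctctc
Mt1: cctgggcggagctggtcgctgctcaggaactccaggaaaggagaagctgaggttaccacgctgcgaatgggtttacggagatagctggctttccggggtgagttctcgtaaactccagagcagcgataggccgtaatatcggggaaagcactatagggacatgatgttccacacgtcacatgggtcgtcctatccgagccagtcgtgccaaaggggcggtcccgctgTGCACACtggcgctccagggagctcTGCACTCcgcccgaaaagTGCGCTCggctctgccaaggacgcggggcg
Mt2: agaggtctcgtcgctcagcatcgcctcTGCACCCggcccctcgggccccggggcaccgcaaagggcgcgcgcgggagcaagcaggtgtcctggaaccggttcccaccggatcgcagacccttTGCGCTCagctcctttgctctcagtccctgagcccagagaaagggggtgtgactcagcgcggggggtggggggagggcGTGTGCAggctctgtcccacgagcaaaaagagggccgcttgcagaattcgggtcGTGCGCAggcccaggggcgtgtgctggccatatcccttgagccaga
The Sgk1 window is 1 of 6 for this gene and holds 3 half-sites, which begin at -242, -189 and -180, counted from the transcription start at 0. The last 2 face each other 3 bases apart, an arrangement present in 3 of the 32851 promoter windows searched (0.00913%). The half-site alone was in 19% of the windows searched, and 2 other Sgk1 windows held 1 each. The Tsc22d3 window is 1 of 3 for its gene and holds 1 half-site, at -185, and the other 2 hold none. No half-site was in the single Fkbp5, Dusp1, Hsd11b1, Mt1 or Mt2 window, which says only that these letters are not in these 300 bases. The metal response element core occurred 3 times for Mt1, at -23, 2 and 20, and 4 times for Mt2, at -223, -128, -50 and 4. Matches at positive positions begin after the start. The core was in 25.7% of the windows searched, and 0.517% held 4 or more. No share was taken for 3 or more, the count of Mt1. A match is a description of the letters and was not tested as a site.

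Before the groups were compared, the saline libraries were compared with each other, because saline 1 had the highest saline value in most of these genes. In FPKM, which divides the reads of a gene by gene length and by a scale for each library (here not the total reads on genes), Mt1 was at 54.4 in saline 1 and at 2.83, 3.77 and 2.45 in saline 2, 3 and 4. Fkbp5 was at 15.1 FPKM in saline 1 and at 1.03, 0.733 and 1.11 in the other saline libraries. Saline 1 was thus 18.0 times the mean of the other 3 saline libraries for Mt1 and 15.8 times for Fkbp5. The ratio was 5.65 for Dusp1, 5.60 for Sgk1, 5.59 for Zbtb16 and 3.32 for Tsc22d3. For the receptor gene Nr3c1 it was 1.42, and for Hsd11b1 it was 1.21. Ordered by the log2(FPKM + 1) difference of saline 1 from the mean of the others, Mt1 was rank 18 of 14893 genes, Fkbp5 46, Zbtb16 65, Dusp1 99, Sgk1 109 and Tsc22d3 346. Nr3c1 was rank 2873 and Hsd11b1 rank 4393.

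**Figure D1:**
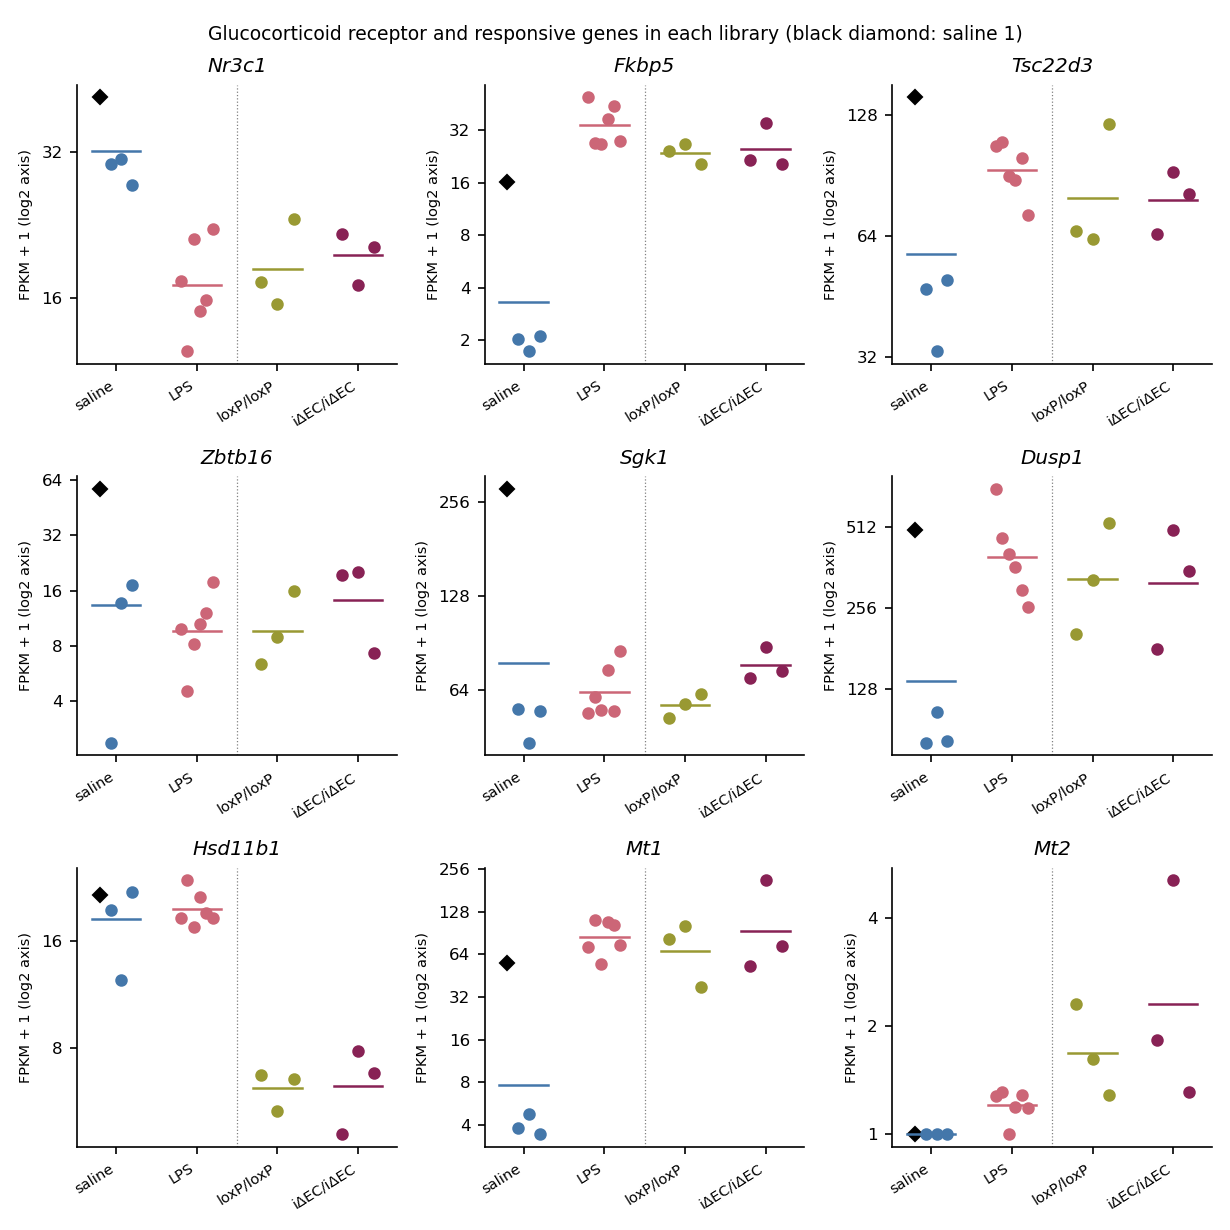
Each panel plots 1 gene, with the 4 groups on the x axis and FPKM + 1 on a log2 axis. Points are libraries, lines are the group means on the log scale, the black diamond is saline 1, and the dotted line parts the 2 separately normalized experiments. Saline 1 lies above the other 3 saline libraries in every gene but Hsd11b1 and Mt2.

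The same library was also high in other genes that glucocorticoids are known to induce, taken as a list of 32. By Dixon's criterion for an outlying library, saline 1 was far above the others in 14 of these 32 genes and in 4 of the 8 members tested (Fkbp5, Sgk1, Dusp1 and Mt1). Over all genes tested the share far above was 5.59% (832 genes), against 38 genes for saline 2, 91 for saline 3 and 50 for saline 4. Saline 1 was also far below the others in 693 genes (4.65%), against 25, 127 and 17 genes for saline 2, 3 and 4. Txnip, a regulator of redox and glucose uptake, was at 1895 FPKM in saline 1 and at 269 to 499 FPKM in the other saline libraries. Klf15, a transcription factor of amino acid metabolism, was at 22.7 FPKM against 2.63 to 3.91. Sesn1, an inhibitor of growth signaling, was at 93.8 FPKM against 13.0 to 14.6. Per1, a clock gene, was at 134 FPKM against 10.8 to 17.9, and Ddit4, a stress-induced inhibitor of mTOR, at 627 FPKM against 15.9 to 37.8. Per1 and Ddit4 were named after their values were seen. Klf15 and Sesn1 met Dixon's criterion, and Txnip, Per1 and Ddit4 did not. Saline 1 also had high sums of several marker lists and high values of some inflammatory genes, though few single markers met Dixon's criterion. Its 8 neutrophil markers summed to 1380 FPKM, against 69.5, 307 and 74.1 FPKM in saline 2, 3 and 4, and the most abundant, S100a9, was at 799 FPKM against 37.4 to 162. Its genes with the largest difference from the other saline libraries were Cxcl2, Il1r2, Il1b and Cd14, which are known from inflammatory responses. Il1r2 is also in the list of 32, as is Ddit4 at rank 6, and no list of inflammatory genes was tested. Its summed epithelial markers were 2845 FPKM against 1068 to 2102, and its mural markers 119 against 24.1 to 44.5. The leukocyte (227 against 76.5 to 156) and macrophage (1098 against 373 to 728) sums were also highest in saline 1. So were the endothelial sum (5429 against 3276 to 4066) and the erythroid sum (25.5 against 6.29 to 13.5). The mean log2(FPKM + 1) of the endothelial markers was not, at 8.01 in saline 1 and 8.09 in saline 3. The lymphocyte sum was not (104 against 24.0 to 134). By Dixon's criterion saline 1 was far above in 0 of 8 neutrophil, 0 of 9 epithelial, 0 of 7 mural and 0 of 6 leukocyte markers tested. The counts were 1 of 8 for macrophage, 1 of 5 for lymphocyte, 0 of 10 for endothelial and 0 of 4 for erythroid markers. Saline 1 had the fewest reads on genes. The part of these in the high values of saline 1 was not tested, and the fold change of each member tested in LPS against saline is given below with and without this library. Saline 1 was singled out from its values in these same genes, so a call made without it is not independent of that choice.

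In LPS against saline, 3 of the 8 members tested rose, namely Fkbp5, Mt1 and Dusp1, and Nr3c1 fell. Tsc22d3, Zbtb16, Sgk1 and Hsd11b1 did not pass the test. Genes were called by limma on log2(FPKM + 1) at an adjusted p (Benjamini-Hochberg, all genes tested) of 0.05 or less, with genes averaging under 0.5 FPKM left out. Of all 14893 genes tested, 29.5% were called higher and 23.7% lower (4399 and 3529 genes). Without saline 1, 4 of the 8 rose, with Tsc22d3 added, and Nr3c1 fell, where 31.2% and 25.5% of 14767 genes were called. With shares this large over all genes, these counts do not set the members apart. The split of calls depended on the scaling, with 3464 higher and 4678 lower on total reads, 3570 and 4295 after quantile normalization, and 7285 and 784 when scaled on 10 endothelial markers. Fewer cells of a type and less RNA per cell cannot be told apart in bulk samples.

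The receptor gene itself was lower in every LPS library than in every saline library. Nr3c1 (ENSMUSG00000024431, GRCm38 chromosome 18, 39410545 to 39491301, minus strand) was at 40.5, 29.3, 29.98 and 26.4 FPKM in saline 1 to 4. In LPS it ranged from 11.5 to 21.2 FPKM with a median of 15.6. The groups did not overlap, and LPS 2 was the lowest library. On the log2 scale the change was -0.92 (SE 0.18, where SE is the standard error, limma adjusted p = 0.00148), with an exact two-sided permutation p of 0.00952, the smallest that 4 against 6 libraries allow. Without saline 1 it was -0.79 (limma adjusted p = 0.00375). When the libraries were scaled on the endothelial markers, which fell in LPS, it was -0.22 (SE 0.27, limma adjusted p = 0.518) and no longer passed. That scaling moved the median of all genes from 0.01 to 0.57. The 3 genes most like Nr3c1 across the 10 libraries, of 12848 compared, were Mbd5 (Pearson r = 0.988), Nav1 (0.985) and Sstr4 (0.984). These correlations include the difference between the groups.

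Fkbp5 encodes a cochaperone that lowers the affinity of the receptor for its hormone and is itself induced by it. Fkbp5 (ENSMUSG00000024222, chromosome 17, 28399094 to 28517527, minus strand) ranged from 25.6 to 48.3 FPKM in LPS with a median of 31.3, against the saline values above. All LPS libraries were above saline 1, and saline 1 was above the other saline libraries. Its fold change on the log2 scale came to 3.37 (SE 0.54, limma adjusted p = 0.000446, exact permutation p = 0.00952). Without saline 1 it was 4.13 (SE 0.22, limma adjusted p = 1.04e-06), and the LPS mean was 35.8 times the mean of saline 2 to 4. Reads numbered 124 to 215 in saline 2 to 4, 1892 in saline 1 and 3965 to 8426 in LPS. Fkbp5 overlaps 4 small annotated genes, none of which had more than 19 reads in a library of this experiment. The 3 genes most like Fkbp5 over the 10 libraries were Etf1, a translation termination factor (Pearson r = 0.990), Rrbp1, a ribosome-binding protein of the endoplasmic reticulum (0.988), and the chemokine Ccl9 (0.987).

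Tsc22d3 encodes GILZ, a protein that mediates anti-inflammatory effects of glucocorticoids. Tsc22d3 (ENSMUSG00000031431, chromosome X, 140539528 to 140600659, minus strand) was at 141 FPKM in saline 1 and at 46.2, 32.2 and 48.9 in saline 2 to 4. In LPS it ranged from 71.2 to 109 FPKM with a median of 94.2. Every LPS library lay between saline 1 and the other saline libraries. The change came to 0.70 (SE 0.33, limma adjusted p = 0.0930). Without saline 1 it was 1.13 (SE 0.18, limma adjusted p = 0.000466), 2.21 times the mean of saline 2 to 4, and this call rests on leaving out a library that was high in Tsc22d3 itself. With all libraries it passed under endothelial scaling (1.42, adjusted p = 0.00727). The change was smaller without saline 3 (0.43, limma adjusted p = 0.280) and after quantile normalization (0.21, adjusted p = 0.564).

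Zbtb16 encodes PLZF, a zinc finger transcription factor. Zbtb16 (ENSMUSG00000066687, chromosome 9, 48654297 to 48836222, minus strand) was at 56.1, 1.39, 12.7 and 16.1 FPKM in saline 1 to 4 and ranged from 3.54 to 16.7 FPKM in LPS with a median of 9.19. Saline 1 was above every LPS library and saline 2 below every one. As a log2 fold change this was -0.46 (SE 0.69, limma adjusted p = 0.589), it was 0.23 without saline 1 (adjusted p = 0.750), and without saline 2 it was -1.29 (adjusted p = 0.0492). Of the libraries left out in turn, only saline 1 turned the direction for Zbtb16, while leaving out saline 2 made it pass. The change was positive, at 0.18, also under scaling on the endothelial markers.

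Sgk1 encodes a kinase that regulates ion channels and cell survival. Sgk1 (ENSMUSG00000019970, chromosome 10, 21882184 to 21999903, plus strand) was at 281 FPKM in saline 1 and at 54.5, 42.3 and 53.8 in saline 2 to 4. In LPS it ranged from 52.8 to 84.5 FPKM with a median of 56.9. No LPS library came near saline 1, and 3 of the 6 were above the other saline libraries. On this scale the difference was -0.31 (SE 0.44, limma adjusted p = 0.570). Without saline 1 it was 0.31 (SE 0.18, limma adjusted p = 0.157), and under endothelial scaling it was 0.41.

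Dusp1 encodes a phosphatase that switches off the MAP kinases p38 and JNK. Dusp1 (ENSMUSG00000024190, chromosome 17, 26505590 to 26508519, minus strand) was at 499 FPKM in saline 1 and at 79.7, 104 and 80.8 in saline 2 to 4. In LPS it ranged from 257 to 709 FPKM with a median of 383. The groups overlapped only through saline 1, which was above 5 of the 6 LPS libraries. The log2 difference was 1.53 (SE 0.49, limma adjusted p = 0.0213, exact permutation p = 0.0571). Without saline 1 it was 2.16 (SE 0.29, limma adjusted p = 0.000200), 4.72 times the mean of saline 2 to 4. Each of the other 3 saline libraries was needed for the call, with an adjusted p of 0.0708 without saline 2, 0.0573 without saline 3 and 0.0706 without saline 4. The call was also lost with no filter on low values (adjusted p = 0.0599) and after quantile normalization (0.0728).

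Hsd11b1 encodes the enzyme that regenerates active corticosterone from its inert form inside cells. Hsd11b1 (ENSMUSG00000016194, chromosome 1, 193221634 to 193264075, minus strand) was at 20.6, 18.6, 11.4 and 21.02 FPKM in saline 1 to 4 and ranged from 16.5 to 22.8 FPKM in LPS with a median of 17.9. The groups overlapped, and saline 3 was the lowest library. Between the groups the log2 change was 0.10 (SE 0.17, limma adjusted p = 0.640), and without saline 1 it was 0.17 (adjusted p = 0.424). Its sign changed on total reads (-0.10), after quantile normalization (-0.21) and without saline 3 (-0.09), and among the settings tried it passed only under endothelial scaling (0.78, adjusted p = 0.0167). Hsd11b1 overlaps Lamb3 on the opposite strand, and no source used here gives the strandedness of the counts. Lamb3 had 159 to 573 reads in the first experiment, where Hsd11b1 had 867 to 1759, and 94 to 390 in the second, where Hsd11b1 had 252 to 497. The part of this overlap in the values of Hsd11b1 was not tested.

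Metallothioneins bind zinc and copper and are induced by metals, glucocorticoids and inflammation. Mt1 (ENSMUSG00000031765, chromosome 8, 94179082 to 94180327, plus strand) ranged from 54.2 to 111 FPKM in LPS with a median of 88.3. Only LPS 3 was below saline 1, and all LPS libraries were above saline 2 to 4. The fitted log2 fold change was 3.46 (SE 0.67, limma adjusted p = 0.00136, exact permutation p = 0.0190), and without saline 1 it was 4.41 (SE 0.23, limma adjusted p = 1.07e-06). The LPS mean was 28.7 times the mean of saline 2 to 4. Mt2 (ENSMUSG00000031762, chromosome 8, 94172664 to 94173568, plus strand) had 0 reads in all 4 saline libraries and 3, 3, 0, 2, 3 and 2 reads in LPS 1 to 6, so no fold change is given. In the same LPS libraries Mt1 had 1230 to 2353 reads. The antisense gene Gm45774 covers 432 of the 588 exonic bases of Mt2 in GENCODE M21, and without strand, reads of an overlapping pair cannot be told apart. Gm45774 itself had 0 to 14 reads in the first experiment and 2 to 14 in the second. The part of this overlap in the low Mt2 count was not tested, and the values of Mt2 do not show that it was not expressed.

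**Figure D2:**
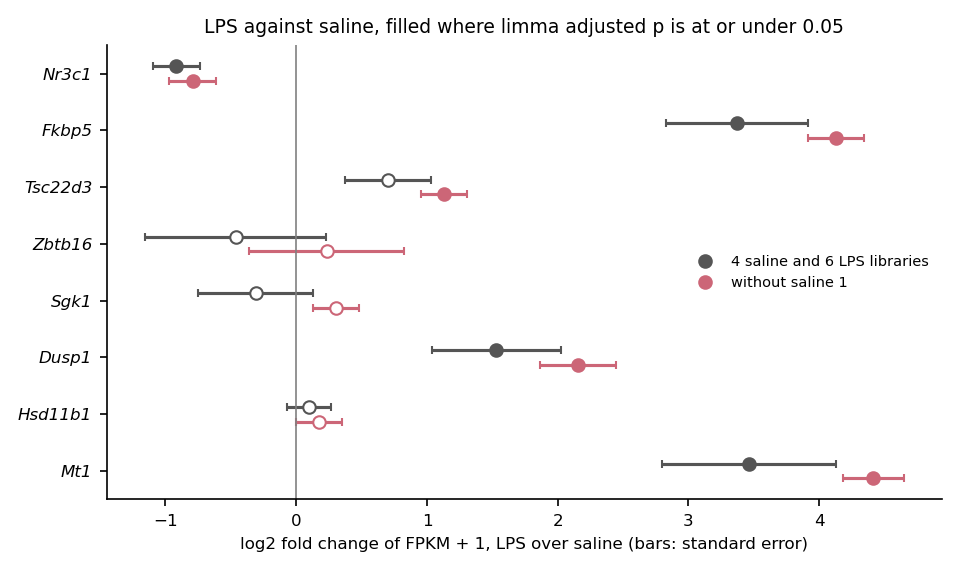
Log2 fold changes of FPKM + 1 in LPS over saline on the x axis for the 8 members tested, in grey with all 10 libraries and in red without saline 1. Bars are standard errors and filled points have a limma adjusted p at or under 0.05. In these 2 fits Tsc22d3 passes only without saline 1, and the points of Zbtb16 and Sgk1 change side of 0.

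Of the 8 members tested, the groups were apart in 2 (Nr3c1 and Fkbp5), where 39.4% of all genes tested were apart. Without saline 1 they were apart in 5 (Nr3c1, Fkbp5, Tsc22d3, Dusp1 and Mt1), where 53.5% of all genes were. With all libraries, the median log2 fold change of the 8 was 0.40, beside 0.01 over all genes. Without saline 1 these medians were 0.72 and 0.02.

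Other genes of the pathway were read from 8 lists, and their counts stand beside the 29.5% of all genes tested that rose and the 23.7% that fell. Among chaperones that load and fold the receptor, 6 of 12 rose and 0 fell, with a median log2 fold change of 0.46. Hspa8, a constitutive chaperone of the HSP70 family, was at 171, 118, 118 and 111 FPKM in saline 1 to 4 and ranged from 283 to 522 FPKM in LPS (log2 fold change 1.53, limma adjusted p = 0.000174). Hsp90aa1, the inducible HSP90, rose by 1.52 (adjusted p = 0.000685) and Stip1, which joins HSP70 to HSP90, by 1.18 (adjusted p = 0.00129). Hsp90aa1 was again higher in saline 1 (50.3 FPKM) than in the other saline libraries (18.1 to 19.97 FPKM). Without saline 1, 7 of the 12 rose, and the changes of Hspa8, Hsp90aa1 and Stip1 were 1.67, 1.86 and 1.44. In the list of 12 coregulator genes, which also holds the mineralocorticoid receptor gene Nr3c2, 4 fell and 2 rose (median -0.09). Nr3c2, whose product also binds corticosterone, fell the most, from 1.56, 3.23, 2.91 and 3.11 FPKM in saline to between 0.252 and 1.02 FPKM in LPS (log2 fold change -1.22, limma adjusted p = 0.000260). The coactivator Ncoa2 changed by -0.63 (adjusted p = 0.0195) and the corepressor Nrip1 by -0.45 (adjusted p = 0.0471). Smarca4, the motor of a chromatin remodeling complex, rose by 0.49. Without saline 1, 2 of the 12 fell, and Nrip1 had an adjusted p of 0.125.

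Of the corticosteroid metabolism and transport list, 7 of 11 genes were tested, of which 3 rose and 2 fell with and without saline 1. The 3 that rose were Akr1c14, a hydroxysteroid dehydrogenase (log2 fold change 1.39), the efflux pump gene Abcb1b (1.33) and Srd5a3 of the steroid reductase family (0.79). The paralog of Abcb1b, Abcb1a, which dominates in these cells, fell from 34.9 to 52.5 FPKM in saline to 17.1 to 33.3 FPKM in LPS (log2 fold change -0.90, limma adjusted p = 0.00164). Srd5a1 changed by -0.53. Abcb1a and Abcb1b are close paralogs, and how reads with several alignments were counted is not given in the sources used here.

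Of the 32 other glucocorticoid-responsive genes, 14 rose and 6 fell in LPS (median log2 fold change 0.66), where 29.5% of all genes tested rose and 23.7% fell. Without saline 1, 20 rose and 5 fell (median 0.78), where 31.2% and 25.5% of all genes did. The rises were led by Lcn2 (7.25), an iron-sequestering acute phase protein, Il1r2 (4.59), the interleukin-1 decoy receptor, and Cebpb (4.29), a transcription factor of inflammation. Lcn2 went from 3.53 to 21.5 FPKM in saline to 741 to 1818 FPKM in LPS (limma adjusted p = 8.63e-07). These 3 are also induced by inflammatory cytokines and are abundant in myeloid cells. With all libraries the falls were led by Sesn1 (-1.47), Klf15 (-1.35) and Txnip (-1.32). All 3 were smaller without saline 1, at -0.80, -0.72 and -0.74 (limma adjusted p = 0.000463, 0.00240 and 0.00936). Without that library the falls in the list were led by Tgfbr3, a coreceptor of TGF-beta (-1.27, limma adjusted p = 9.65e-05), and the transcription factor gene Foxo1 (-1.26, adjusted p = 3.02e-05), both named after their values were seen. Per1 had a log2 fold change of 0.03 with all libraries (limma adjusted p = 0.960) and of 0.80 without saline 1 (adjusted p = 0.00299). Ddit4 had 1.40 (adjusted p = 0.162) and 2.54 (adjusted p = 7.39e-05). The members that moved in this list thus went in both directions.

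**Figure D3:**
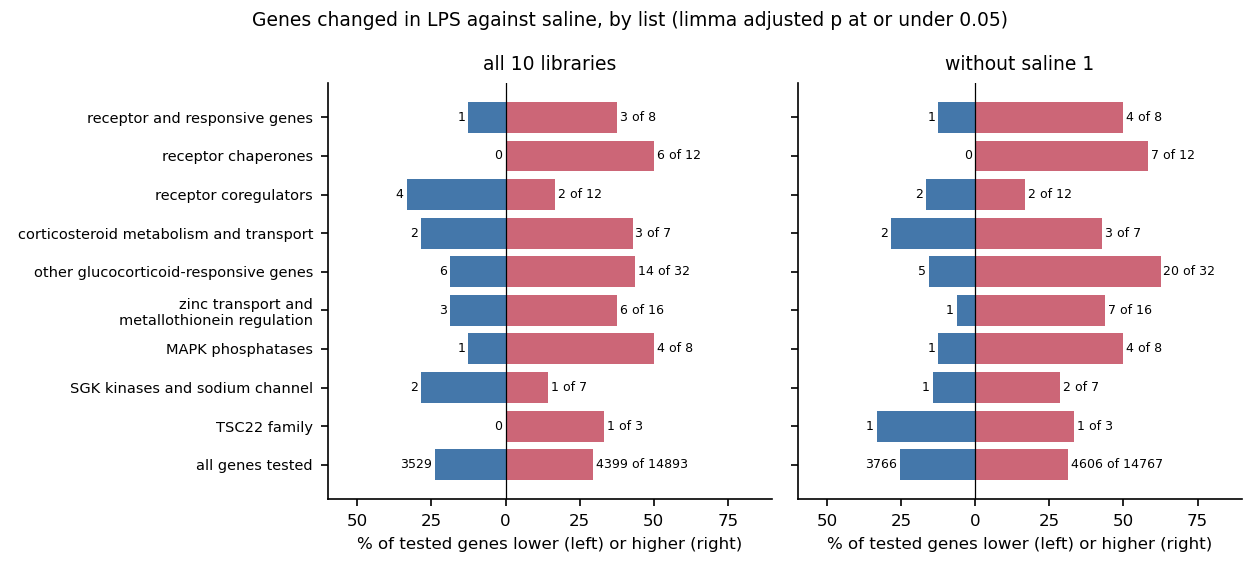
Share of tested genes in each list that were higher (red, right) or lower (blue, left) in LPS at a limma adjusted p at or under 0.05, with all 10 libraries and without saline 1. Numbers beside the bars are genes. The list of other glucocorticoid-responsive genes goes from 14 to 20 higher of 32 without saline 1, and all genes tested are shown for comparison.

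The remaining lists hold relatives and partners of single members. Of 16 zinc transport and metallothionein regulation genes tested, 6 rose and 3 fell (median 0.29). Slc39a14, an importer of zinc and iron, rose by 1.44 on the log2 scale (limma adjusted p = 0.000349), from 2.69 to 6.09 FPKM in saline to 6.89 to 14.6 FPKM in LPS. Slc39a4 rose by 0.93 and Slc39a1 by 0.79, while Slc39a10 (-0.52), Slc30a4 (-0.44) and Slc30a9 (-0.25) fell. Without saline 1, 7 rose and 1 fell, and Slc30a4 and Slc30a9 had adjusted p of 0.0771 and 0.0523. Of the 8 MAPK phosphatases tested beside Dusp1, 4 rose and 1 fell (median 0.91). Dusp5, a nuclear phosphatase of ERK, rose from 1.54 to 3.61 FPKM in saline to 13.9 to 45.1 FPKM in LPS (log2 fold change 3.03, limma adjusted p = 1.56e-05). Dusp2 rose by 2.73 and Dusp16 by 1.86, and Dusp7 changed by -0.65 (adjusted p = 0.00273). These counts were the same without saline 1. Among 7 genes of SGK kinases and the epithelial sodium channel, Sgk3 rose by 0.89 (limma adjusted p = 0.000220), and Scnn1b (-0.58, adjusted p = 0.0444) and the ubiquitin ligase gene Nedd4l (-0.52, adjusted p = 0.0314) fell. Without saline 1, 2 rose and 1 fell, Scnn1b had an adjusted p of 0.116 and Nedd4l changed by -0.28 (adjusted p = 0.0211). In the TSC22 family Tsc22d4 rose by 1.10 (limma adjusted p = 8.71e-05), 1 of 3 tested. Tsc22d1 was at 84.6 FPKM in saline 1 and at 18.9 to 19.7 FPKM in saline 2 to 4, and at 11.1 to 17.2 FPKM in LPS (-0.93, adjusted p = 0.0541). Without saline 1 it fell by 0.41 on the log2 scale (limma adjusted p = 0.0345), so that 1 of the 3 genes rose and 1 fell. Tsc22d1 was named after its values were seen.

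Markers of other cells moved with LPS. The mean log2(FPKM + 1) over 10 endothelial markers fell by 0.72, with an exact permutation p of 0.00952 (adjusted over 9 lists, 0.0286), and the groups did not overlap. Cldn5 was the most abundant of them, at 938 to 2842 FPKM in saline and 481 to 1618 in LPS. Cdh5, which encodes VE-cadherin, was at 669 to 792 FPKM in saline and 245 to 520 in LPS, and Pecam1, which encodes CD31, at 339 to 516 and 234 to 444. No endothelial marker was at 0 in any library. Macrophage markers were higher by 3.84 and general leukocyte markers by 2.78 (exact permutation p adjusted to 0.0286 for both), and neither list overlapped between groups. Ptprc, which encodes CD45, was at 11.0, 7.44, 3.53 and 5.93 FPKM in saline 1 to 4 and at 22.1 to 52.7 FPKM in LPS. The neutrophil list was higher by 2.65 (adjusted exact permutation p = 0.0343), with groups that overlapped through saline 1. The most abundant leukocyte, macrophage and neutrophil genes were Coro1a (222 to 580 FPKM in LPS), Lyz2 (1550 to 3311) and S100a9 (757 to 4355). The erythroid list was higher by 0.99 (adjusted p = 0.0343, exact permutation test) and led by Hba-a1. The lymphocyte list differed by -1.01 (adjusted p = 0.0490) and the fibroblast list by -0.47 (adjusted p = 0.0429), both by exact permutation, with Cd79a and Col3a1 the most abundant. Without saline 1 both missed 0.05 before adjustment (lymphocyte -0.89, p = 0.0952, and fibroblast -0.44, p = 0.0714, exact permutation). Both also missed it without saline 2 or 4, and the lymphocyte list without LPS 1, 5 or 6. The epithelial list, led by Sftpc, differed by -0.54 (adjusted p = 0.257) and the mural list, led by Acta2, by -0.28 (adjusted p = 0.419) by the same test. Without saline 1 the mean differences were -0.71 (endothelial), 3.01 (leukocyte), 3.33 (neutrophil), 3.90 (macrophage), 1.14 (erythroid), -0.23 (epithelial) and -0.0036 (mural). The cells that the members' transcripts came from cannot be told apart in this bulk fraction, and the part of leukocytes in these results was not tested.

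**Figure D4:**
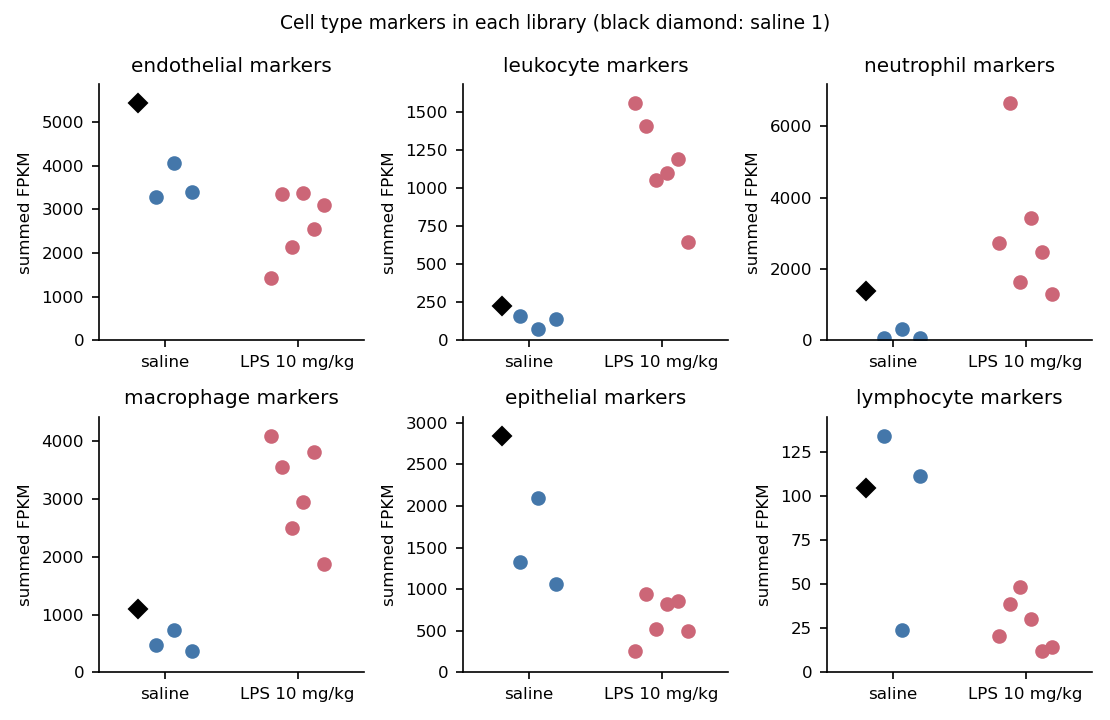
Summed FPKM of 6 marker lists in each saline and LPS library, with linear axes from 0 and saline 1 as the black diamond. Saline 1 has 1380 FPKM of neutrophil markers against 69.5 to 307 in the other saline libraries, and its leukocyte and macrophage sums stay below those of all LPS libraries.

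The second experiment compared Fgfr1 iΔEC/iΔEC with loxP/loxP mice, both after LPS. Fgfr1 was at 2.90, 2.91 and 2.60 FPKM in the loxP/loxP libraries and at 0.682, 1.41 and 1.15 FPKM in those of iΔEC/iΔEC mice, the direction that the genotype labels give. No member passed the test, and over all 14945 genes tested 0% did (0 genes by limma, 661 at an unadjusted p under 0.05, and 0 and 619 by limma-voom on recovered reads). Mt2 passed the filter here, so all 9 members were tested.

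Sgk1 was the single member whose groups did not overlap, where 10.1% of all genes tested were apart. It was at 51.1, 56.5 and 61.1 FPKM in loxP/loxP 1 to 3 and at 69.0, 86.4 and 72.6 FPKM in iΔEC/iΔEC 1 to 3. Since the groups did not overlap, this order holds however the libraries are paired. Its log2 fold change was 0.42 (SE 0.13, limma p = 0.0168, adjusted p = 0.962), with an exact permutation p of 0.1, the smallest that 3 against 3 libraries allow. The difference did not pass the test over all genes, and its adjusted p was 0.586 once the replicate number entered as a block. Under endothelial scaling the difference was 0.18 (SE 0.27, limma adjusted p = 0.809).

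The receptor and the other targets overlapped between genotypes. Nr3c1 was at 16.3, 14.5 and 22.3 FPKM in loxP/loxP and at 20.7, 16.0 and 19.4 FPKM in iΔEC/iΔEC libraries (log2 fold change 0.09, SE 0.18). Fkbp5 was at 23.1, 25.6 and 19.5 FPKM and at 20.5, 34.0 and 19.3 FPKM (0.07, SE 0.23). For both the spread within a genotype was larger than the difference. Tsc22d3 was at 65.1, 61.9 and 121 FPKM and at 63.7, 91.4 and 80.3 FPKM (-0.02, SE 0.28). Dusp1 ranged widely, at 203, 325 and 530 FPKM and at 178, 500 and 349 FPKM (-0.06, SE 0.48). Both signs turned without loxP/loxP 3 (0.29 for each gene) and without iΔEC/iΔEC 1 (0.12 and 0.35). Zbtb16 was at 5.42, 7.97 and 14.9 FPKM and at 18.5, 19.1 and 6.37 FPKM (0.55, SE 0.48). The iΔEC/iΔEC libraries 1 and 2 were above all loxP/loxP libraries for this gene, and iΔEC/iΔEC 3 was below 2 of them. The difference was 0.26 without loxP/loxP 1 and 1.03 without iΔEC/iΔEC 3. Hsd11b1 was at 5.73, 4.34 and 5.55 FPKM and at 3.60, 6.89 and 5.83 FPKM (0.03, SE 0.22). The adjusted limma p of these 6 genes was between 0.962 and 0.999.

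The metallothioneins were highest in iΔEC/iΔEC 2. Mt1 was at 81.0, 101 and 36.6 FPKM in loxP/loxP and at 52.1, 213 and 72.6 FPKM in iΔEC/iΔEC libraries (0.47, SE 0.59, limma adjusted p = 0.963). Mt2 was at 1.30, 0.621 and 0.281 FPKM and at 0.826, 4.11 and 0.313 FPKM, from 13, 6, 3, 8, 41 and 3 reads (0.45, SE 0.51). Without iΔEC/iΔEC 2 both changed sign, to -0.12 for each. S100a9 was at 657, 1433 and 1398 FPKM in loxP/loxP 1 to 3 and at 377, 1280 and 798 FPKM in iΔEC/iΔEC 1 to 3. Ptprc was at 13.97, 16.8 and 23.2 FPKM and at 10.1, 21.8 and 13.8 FPKM. Both were highest in library 2 within iΔEC/iΔEC, while loxP/loxP 3 had the highest Ptprc of the 6 libraries and the lowest Mt1 and Mt2. The part of leukocytes in the metallothionein values was not tested.

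**Figure D5:**
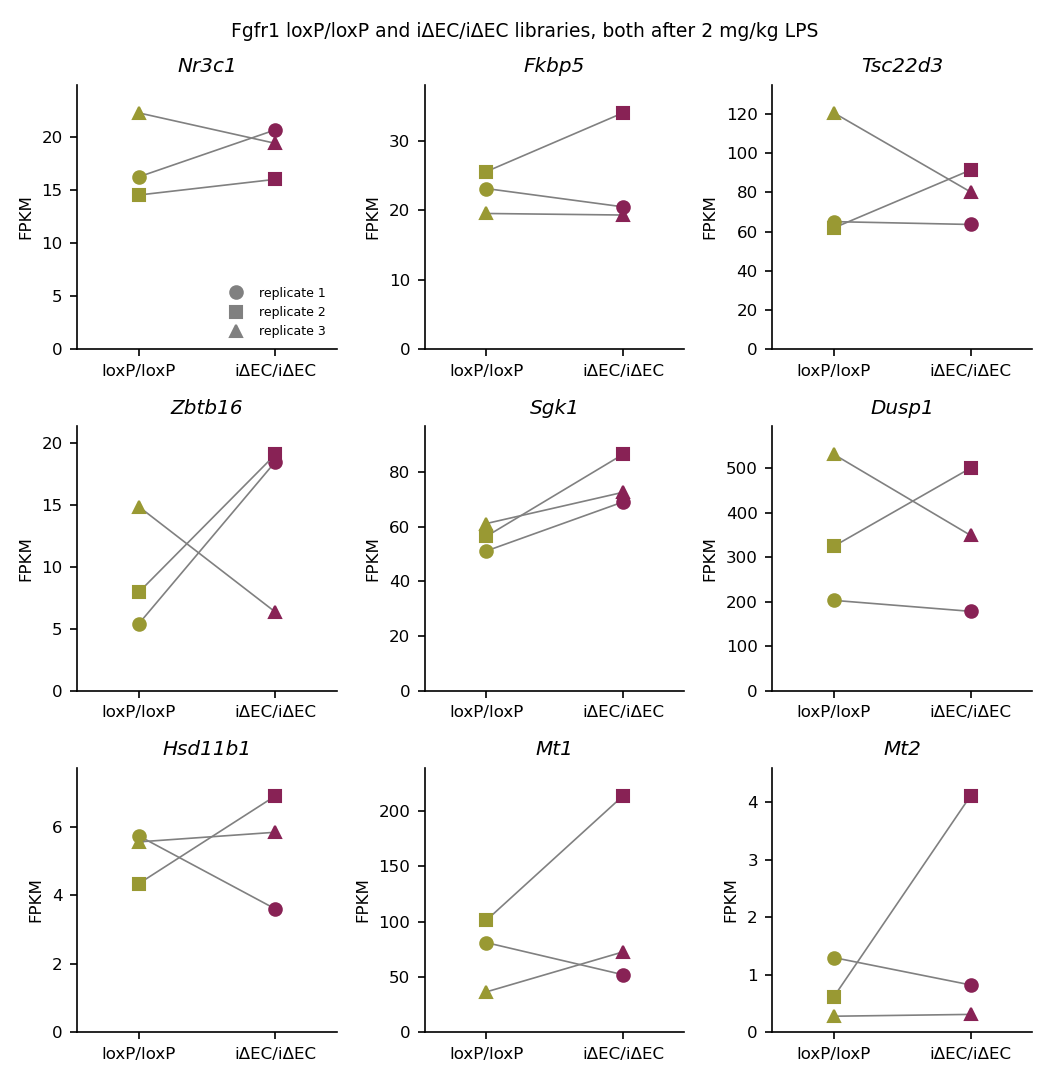
FPKM of the 9 members on linear axes from 0 in the 3 loxP/loxP and 3 iΔEC/iΔEC libraries, with libraries of the same replicate number joined. Sgk1 is higher in every iΔEC/iΔEC library than in every loxP/loxP library (69.0 to 86.4 against 51.1 to 61.1 FPKM), and the other 8 genes overlap between genotypes.

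In the pathway lists 0 genes passed, and the groups were apart in 11 of the 95 list genes tested (11.6%), a share near the 10.1% of all genes tested that were apart. In the list of other glucocorticoid-responsive genes 5 of 31 were apart, with the largest differences in Cdkn1a and Fam107a. Cdkn1a, the cell cycle inhibitor p21, was at 94.96, 88.0 and 58.5 FPKM in loxP/loxP and at 169, 174 and 122 FPKM in iΔEC/iΔEC libraries (log2 fold change 0.95, SE 0.23, limma adjusted p = 0.962). Fam107a was at 42.1, 30.5 and 24.1 FPKM and at 68.8, 45.4 and 48.3 FPKM (0.74, same adjusted p). Genes whose groups were apart included Nrip1 (0.26) among the coregulators, among the phosphatases Dusp8 (0.62), among the zinc genes Slc30a5 (0.21), and in the SGK and sodium channel list Scnn1b (-0.32) and Wnk1 (0.25). No gene of the chaperone, corticosteroid metabolism or TSC22 lists was apart. All 9 marker lists overlapped between genotypes, with mean differences from -0.73 (epithelial) to 0.25 (endothelial) and adjusted exact permutation p of 0.6 or more in a test that did not pair the libraries. Between libraries of the same number, the epithelial, neutrophil and mural means were lower and the endothelial mean higher in iΔEC/iΔEC in all 3 pairs. The epithelial mean of log2(FPKM + 1) was 4.44, 5.06 and 5.24 in loxP/loxP 1 to 3 and 3.62, 4.59 and 4.34 in iΔEC/iΔEC 1 to 3. The neutrophil mean was 5.29, 6.38 and 6.55 against 4.76, 6.33 and 5.73. The endothelial mean was 7.54, 7.18 and 7.31 against 7.80, 7.28 and 7.71. The part of these in the differences of single genes was not tested.

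Set side by side without a test, since dose, genotype and normalization differ, the 3 loxP/loxP libraries at 2 mg/kg LPS had Nr3c1 at 14.5 to 22.3 FPKM, beside 11.5 to 21.2 at 10 mg/kg in WT mice. Fkbp5 was at 19.5 to 25.6 FPKM, beside 25.6 to 48.3, and Mt1 at 36.6 to 101 FPKM, beside 54.2 to 111. Hsd11b1 was at 4.34 to 5.73 FPKM in loxP/loxP, beside 16.5 to 22.8 in WT LPS and 11.4 to 21.02 in saline. Per length, Dusp1 had the highest FPKM of the 9 in the median of the 10 mg/kg LPS libraries, followed by Tsc22d3, Mt1, Sgk1, Fkbp5, Hsd11b1, Nr3c1, Zbtb16 and Mt2. Of these neighbours the ranges overlapped between Tsc22d3 and Mt1, Mt1 and Sgk1, Hsd11b1 and Nr3c1, and Nr3c1 and Zbtb16. By the mean of saline 2 to 4 the order was led by Dusp1, Sgk1 and Tsc22d3, with the ranges of the last 2 overlapping, and Mt1, Fkbp5 and Mt2 were the lowest.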

How the data were processed

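RNA-seq was measured in 16 libraries of mouse pulmonary ECs. The authors aligned reads to GRCm38 (mm10 in their processing notes) with HISAT2 2.0.5, counted them with featureCounts 1.5.0-p3 and deposited FPKM with gene lengths for 54532 genes in each of 2 tables. Strandedness, annotation release and the treatment of reads with several alignments are not given in the sources used here. Low values gave whole reads for 100.0% and 99.94% of nonzero values (within 0.01), which gave the reads on genes (13478726 to 19043015 per library). Dates stood for 11 gene symbols in the table of the second experiment, and the symbols of the first were used. Median-of-ratios factors moved the deposited FPKM by at most 0.182%, so these were already on a scale of that kind and not per total reads. FPKM was scaled by these factors, and log2(FPKM + 1) was fitted, after genes averaging under 0.5 FPKM were dropped, with limma 3.58.1 (lmFit, eBayes with trend) in R 4.3.3, with Benjamini-Hochberg adjustment over all genes tested. Fold changes are on the log2(FPKM + 1) scale, which understates those of low genes. Limma-voom on the recovered reads was an alternative, which called 4049 genes higher and 3998 lower in LPS. Exact permutation tests, two-sided, were used for list means and single genes (scipy 1.17.1, Python 3.11.15, numpy 2.4.6, pandas 2.3.3), and figures drawn with matplotlib 3.10.9. The fit was tested on simulated data with large changes in genes of many reads, the same spread for every gene and no outlying library. That test does not cover smaller changes or a library like saline 1.

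The labels do not say that libraries come from separate mice, and p-values then measure only the spread between these samples. In the second experiment the deviations of libraries with the same replicate number correlated (r = 0.248, 0.178 and 0.187). This is a hint of pairing from the data, since no label says so. The main fit and the permutation tests did not pair the libraries, and the number entered only in the alternative with a replicate block. With that block 0 genes were called, and 1154 had an unadjusted limma p under 0.05, beside 661 in the main fit. The members and lists were chosen with earlier results of these data known. All 9 members are named. Of each list up to 3 genes with the largest change in each direction are named in LPS against saline, among called genes of at least 1 FPKM in a group. In the second experiment, where none was called, up to 2 genes a list with the largest difference and groups apart are named. The most abundant marker of each list is named, with Ptprc, Pecam1 and Cdh5, and the 3 genes most like Nr3c1 and Fkbp5. A gene that this rule would name is not reported here. The genes most like Mt2 are not given, since it had at most 3 reads in a library of the first experiment, where likeness was computed.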

Additional observations from a re-analysis of the deposited data

Results flagged for a closer look

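Of 36 group values examined in groups of 4 or 6 libraries, 6 had a library far from the rest by Dixon's criterion, and chance gives about 1 in 20. In 4 of them the far library was saline 1, with Fkbp5 at 15.1 FPKM, Sgk1 at 281 FPKM, Dusp1 at 499 FPKM and Mt1 at 54.4 FPKM, each far above saline 2 to 4. These 4 values come from the same library and are not independent of each other. In the other 2 it was saline 3, where the mean log2(FPKM + 1) of the lymphocyte list (1.72) and of the fibroblast list (2.21) lay far under the rest of the group. Over all genes tested, saline 1 was far above the other saline libraries in 5.59% and far below in 4.65%. For saline 3 these shares were 0.611% and 0.853%, for saline 2 0.255% and 0.168%, and for saline 4 0.336% and 0.114%. The count of 6 was not tested against these shares.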

How the results depend on the processing

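Alternatives were a pseudocount of 0.1, no filter, a filter at 2 FPKM, FPKM as deposited, scaling on total reads, by quantiles or on the endothelial list, limma-voom, a replicate block and each library left out. In LPS against saline, the calls of Fkbp5 and Mt1 held under all of them, that of Nr3c1 under all but endothelial scaling, and that of Dusp1 was lost in 5 (no filter, quantile normalization, and without saline 2, 3 or 4). Scaling on the endothelial list gave 7285 genes higher and 784 lower, with 5 members higher and 0 lower, and moved Zbtb16 to 0.18 and Sgk1 to 0.41. Hsd11b1 was -0.10 on total reads and -0.21 after quantile normalization. Leaving out 1 library gave 1 to 2 members lower, and -1.29 to 0.23 for Zbtb16, -0.59 to 0.31 for Sgk1 and -0.093 to 0.18 for Hsd11b1.

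In iΔEC/iΔEC against loxP/loxP no member was called under any alternative. Endothelial scaling gave 0.18 for Sgk1, -0.15 for Nr3c1, -0.17 for Fkbp5 and -0.18 for Hsd11b1, which was -0.030 on total reads. Leaving out 1 library gave 0.33 to 0.49 for Sgk1, 0.26 to 1.03 for Zbtb16, -0.032 to 0.26 for Nr3c1, -0.18 to 0.22 for Fkbp5, -0.19 to 0.29 for Tsc22d3, -0.40 to 0.35 for Dusp1, -0.14 to 0.25 for Hsd11b1, -0.12 to 0.89 for Mt1 and -0.12 to 0.86 for Mt2. For marker lists it gave -0.40 to 0.14 (macrophage), -0.29 to 0.10 (fibroblast) and -0.21 to 0.75 (erythroid). The cause was not tested for any of these.

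With the replicate number as a block, 3438 genes were higher and 2561 lower in LPS, Nr3c1 was at -0.99 and Sgk1 in iΔEC/iΔEC at 0.42, and no call of a member changed. In the first experiment same-numbered libraries did not deviate together (r = 0.0972, -0.162, -0.209 and -0.117), so there the number is not a pairing. Mt2 had at most 3 reads in the first experiment, too few for a fold change, and the cause was not tested. With no filter it was tested and passed (limma adjusted p = 0.0200), a call that rests on at most 3 reads in a library. Reads are not independent molecules.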
